A study of Mus musculus with 42 samples.

Results

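The genes described here are the matrix metalloproteinases and their tissue inhibitors that were followed in the mouse cerebellum: the membrane-type proteinases Mmp14, Mmp15, Mmp16, Mmp17 and Mmp24, the secreted gelatinase Mmp2, and the inhibitors Timp1, Timp2, Timp3 and Timp4. These 10 genes, of 35275 in the deposited count tables, were matched by symbol in both tables. The family was selected on results of this series: Mmp14 had been called in the comparison of daily fasting with ad libitum feeding, and the other 9 genes were added for their function. Values of that comparison are therefore given as a description, with no test.

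All mice were male C57BL/6 animals (the C57/BL6NTac substrain in the design text), and RNA was sequenced from frozen cerebellum. From 3 months of age they were fed ad libitum (AL), fasted for 16 h of every day (IF16) or fasted for 24 h on alternate days (EOD), and these groups were collected at 6 months of age. Further mice went through the same regimens and then had 2 months of free access to food, giving the groups AL-R, IF16-R and EOD-R at 8 months of age. Each of the 6 groups had 5 libraries. The labels do not say how long before collection the mice had last eaten. The samples of chromatin immunoprecipitation in the same series were not analysed here.

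Matrix metalloproteinases are zinc-dependent endopeptidases made as inactive precursors, which are switched on when a propeptide is removed by furin-like convertases or by other proteinases. Membrane-type members sit on the cell surface and cut matrix proteins, receptors and other proteinase precursors, while the TIMPs bind the active site and hold these enzymes in check. In the brain they act on perineuronal nets, basement membranes and adhesion molecules during growth of axons, remodelling of synapses and repair.

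Total counts per library ranged from 26799825 to 36167435, and the common biological coefficient of variation was 14.3% at the end of the regimens and 8.05% after refeeding. All 9 granule cell markers and all 9 Purkinje cell markers were present in every group, with summed levels of 6316 to 7581 and 7282 to 9653 CPM (counts scaled to library size by TMM). Choroid plexus markers varied widely between libraries, from a summed 34.5 to 4290 CPM. Libraries also differed in how steeply counts rose with gene length, a slope called here the length gradient (log2 CPM per log2 base). It was lowest in AL replicate 4 (0.793), IF16 replicate 1 (0.836) and AL replicate 5 (0.844), and highest in EOD replicate 4 (1.09). The fits were repeated without these 4 libraries.

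Mmp14 (ENSMUSG00000000957) lies on chromosome 14, 54431604 to 54441258, plus strand, in mm10. It encodes MT1-MMP, which cuts fibrillar collagen and activates the precursor of MMP2 in a complex with TIMP2. Mmp15 (ENSMUSG00000031790, chromosome 8, 95352268 to 95374293, plus strand) encodes the related MT2-MMP. These were the 2 genes whose levels did not overlap between IF16 and AL, and Timp1 was the member whose levels did not overlap between EOD and AL. Of 16577 genes, 0.694% lay lower in every IF16 library than in every AL library, and 1.36% higher in every EOD library than in every AL library. The 250 bases before the RefSeq start of each of the 3 genes (assembly GRCm38.p6) are therefore shown, 5′ to 3′ on the plus strand, with GC boxes in capitals (GGGCGG on either strand, here also as CCGCCC).
Mmp14, chr14:54431348-54431597: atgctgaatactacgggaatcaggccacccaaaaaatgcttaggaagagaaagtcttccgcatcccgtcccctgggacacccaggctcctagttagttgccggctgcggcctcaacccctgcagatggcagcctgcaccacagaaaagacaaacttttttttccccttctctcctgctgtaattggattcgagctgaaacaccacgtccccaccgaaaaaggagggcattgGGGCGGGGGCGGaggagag
Mmp15, chr8:95352046-95352295: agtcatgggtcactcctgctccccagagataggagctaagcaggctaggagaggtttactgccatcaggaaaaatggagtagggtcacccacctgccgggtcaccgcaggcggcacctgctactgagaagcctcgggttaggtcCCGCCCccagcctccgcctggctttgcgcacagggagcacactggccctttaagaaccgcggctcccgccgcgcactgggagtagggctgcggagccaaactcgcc
Timp1, chrX:20869916-20870165: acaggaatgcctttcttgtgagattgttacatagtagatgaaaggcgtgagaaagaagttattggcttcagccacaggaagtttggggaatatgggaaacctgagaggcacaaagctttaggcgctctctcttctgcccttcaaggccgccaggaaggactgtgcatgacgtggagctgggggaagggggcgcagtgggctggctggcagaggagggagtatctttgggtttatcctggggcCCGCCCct

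The Mmp14 window held 2 GC boxes side by side, beginning 19 and 13 bases before the start. The Mmp15 window held 1, beginning 106 bases before the start, and the Timp1 window 1, beginning 8 bases before it. Such a box occurred in 32.7% of 32851 RefSeq windows of the same length. None of the 3 windows held a TATA box (TATAAA, in 12.4% of windows), an E-box (CACGTG, in 6.02%) or an AP-1 motif (TGANTCA, in 6.75%), each searched on both strands. GC content was 55.2% for Mmp14, 63.6% for Mmp15 and 54.4% for Timp1, against a median of 52.4% over all windows. Windows were found for 7 of the 10 genes, and not for Mmp2, Mmp16 and Mmp17. These matches are letters in a window and were not measured as bound sites.

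Levels of different genes were compared per length, as the authors' deposited FPKM over all 30 libraries. Timp4, an inhibitor prominent in the brain and heart, was the most abundant at 147 FPKM (range 120 to 201). Mmp24, which encodes the neuronal MT5-MMP, followed at 67.2 FPKM (49.3 to 79.5), and its range met neither that of Timp4 nor that of Mmp17. Mmp17, encoding the GPI-anchored MT4-MMP, averaged 22.5 FPKM (18.5 to 30.6).

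Timp2 averaged 17.3 FPKM (13.4 to 26.2), Mmp14 14.3 (7.58 to 19.1) and Timp3 13.3 (5.65 to 16.7). These 3 genes and Mmp17 formed a middle tier whose neighbouring ranges overlapped. Mmp15 averaged 5.59 FPKM (4.37 to 6.92), overlapping Timp3 just above it and standing clear of Mmp16 below.

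At the bottom, Mmp16 averaged 1.19 FPKM (0.640 to 1.65), Timp1 0.882 (0.489 to 1.35) and Mmp2 0.798 (0.488 to 1.24). The ranges of these 3 genes overlapped. Timp1, the TIMP best known as inducible by cytokines, rested on only 13 to 40 counts per library, and Mmp2 on 50 to 128. The plot of levels on a log axis shows these tiers.

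**Figure D1:**
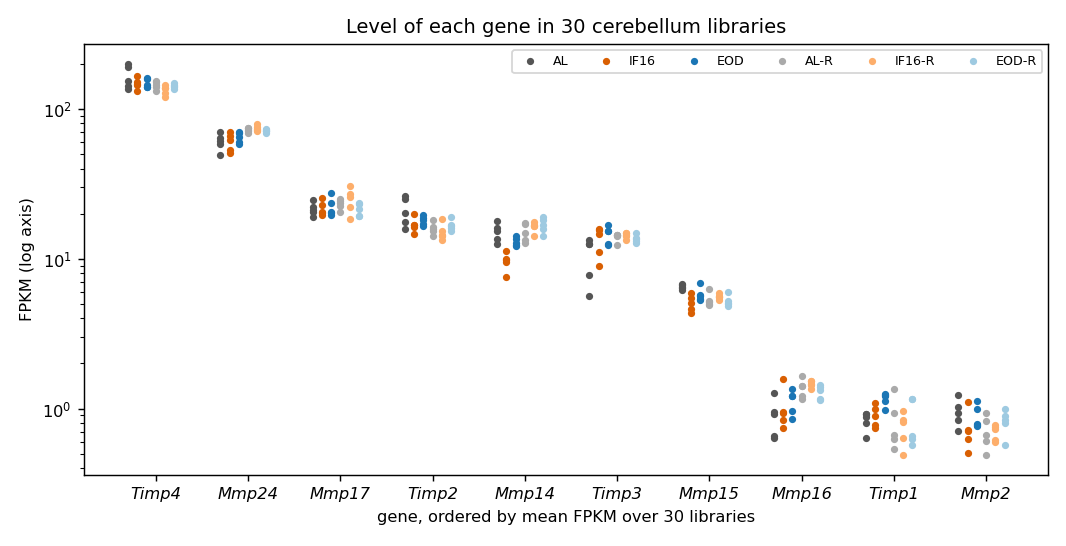
Level in FPKM (log axis) of each of the 10 genes, ordered by mean, with 1 point per library and the 6 groups in colour. Timp4 (120 to 201 FPKM) and Mmp24 (49.3 to 79.5) stand above all other members, and Mmp16, Timp1 and Mmp2 lie lowest, between 0.488 and 1.65.

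Summed FPKM of the 6 proteinases of AL libraries averaged 105 ± 9.82 (SD, n = 5), of IF16 98.5 ± 10.8 and of EOD 108 ± 8.91, and those of AL-R, IF16-R and EOD-R were 118 ± 3.56, 123 ± 8.06 and 117 ± 0.902. The 4 TIMPs summed to 197 ± 25.3, 179 ± 10.3 and 182 ± 8.17 in the first table and to 175 ± 8.09, 164 ± 7.55 and 174 ± 4.47 in the second. The ratio of proteinase to inhibitor transcript was thus 0.546 ± 0.109, 0.552 ± 0.0639 and 0.590 ± 0.0463 at the end of the regimens, with overlapping ranges. After refeeding it was 0.677 ± 0.0516 for AL-R, 0.754 ± 0.0280 for IF16-R and 0.673 ± 0.0196 for EOD-R. The IF16-R libraries, at 0.713 to 0.778, lay above every EOD-R library (0.645 to 0.700) and overlapped AL-R (0.629 to 0.747). Mmp24 (4306 bases) and Timp4 (1416 bases) make up most of these sums. The length gradient was 1.03 ± 0.0167 in IF16-R and 0.998 ± 0.0170 in EOD-R, and its part in the ratio was not tested. No test was made of the sums, and levels in the 2 tables were normalised separately and are not compared.

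Daily 16 h fasting was set against ad libitum feeding at the end of the regimens. This is the contrast that chose the family. Mmp14 stood at 39.1, 45.9, 40.8, 33.7 and 35.9 CPM in the 5 AL libraries and at 24.6, 29.4, 19.1, 25.4 and 25.7 CPM in the 5 IF16 libraries. Every IF16 library lay below every AL library. The means were 39.1 ± 4.67 and 24.8 ± 3.70 CPM (SD, n = 5), a log2 fold change of -0.65 (SE 0.102). In whole tissue, fewer cells that express a gene and less RNA per cell cannot be told apart.

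Mmp15 showed the same order of groups. Its levels were 28.4, 29.1, 26.4, 28.9 and 28.4 CPM in AL, and 22.1, 25.8, 18.5, 23.5 and 20.1 CPM in IF16. Again no IF16 library reached the lowest AL library, although 25.8 and 26.4 CPM were close. The log2 fold change was -0.36 (SE 0.0963).

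Of the 10 genes, all of which passed the filter on low counts, edgeR called 1 at the threshold of 0.05 on its adjusted p (Mmp14, the choosing call), where 0.0483% of 16577 genes were called. By estimate 4 genes were higher in IF16 and 6 lower, with a median log2 fold change of -0.09 against -0.0062 for all genes tested. Mmp2, whose product degrades denatured and basement membrane collagen, averaged 2.21 ± 0.665 CPM in IF16 and 2.89 ± 0.654 in AL, a log2 fold change of -0.38 (SE 0.197) with overlapping libraries. Timp2, the inhibitor that also serves in the activation of MMP2, averaged 62.1 ± 6.64 and 78.1 ± 17.2 CPM, a log2 fold change of -0.33 (SE 0.121). AL replicates 1 and 4 carried Timp2 at 91.6 and 99.9 CPM, and the other AL libraries, at 74.2 CPM or less, overlapped IF16 (54.2 to 72.6 CPM).

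The other 6 members overlapped between IF16 and AL. Timp3 averaged 61.7 ± 13.7 CPM in IF16 and 48.7 ± 15.2 in AL, a log2 fold change of 0.34 (SE 0.201), and Mmp16 4.99 ± 1.55 and 4.43 ± 1.21 CPM, one of 0.17 (SE 0.210). Timp4 averaged 209 ± 19.9 and 234 ± 46.1 CPM (-0.17, SE 0.111) and Timp1 0.787 ± 0.126 and 0.735 ± 0.111 CPM (0.10, SE 0.165). Mmp24 and Mmp17 had the smallest estimates, -0.012 (SE 0.101) and 0.010 (SE 0.110).

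The estimate for Mmp14 ranged from -0.75 to -0.61 over 9 other settings and from -0.72 to -0.57 when each library was left out in turn. The choosing call held in 6 of the 9 settings and in 5 of the 10 leave-one-out fits. These refits reuse the libraries that chose the gene, so they describe the call and are no test of it. Summed levels of the 10 endothelial markers were 389 to 444 CPM in IF16 and 432 to 461 CPM in AL. Those of the 4 markers of oligodendrocyte precursors were 46.2 to 50.2 and 50.1 to 57.9 CPM, so both sums overlapped. In mean log2 CPM, the measure that was tested, every IF16 library lay below every AL library for the precursors, while endothelium overlapped. The difference in mean log2 CPM, IF16 minus AL, was -0.12 for endothelium, -0.17 for the precursors and -0.13 for mural cells, and 0.08 for astrocytes and Bergmann glia and 0.07 for Purkinje cells. In 66 comparisons of marker lists and gradient over the series the smallest adjusted p was 0.0954, by exact permutation. The precursors had that value, from an exact permutation p of 0.00794, the smallest that 5 libraries against 5 can give. Adjusted over 66 comparisons, 1 list alone at that floor could not pass, so the test cannot show that no list differed. The 12 meningeal fibroblast markers summed to 285 to 432 CPM in IF16 and 303 to 477 CPM in AL. None of these markers was at 0. With the meningeal markers as a covariate the Mmp14 estimate was -0.61 and the choosing call was lost, while the part of endothelium and precursors in the Mmp14 difference was not tested.

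**Figure D2:**
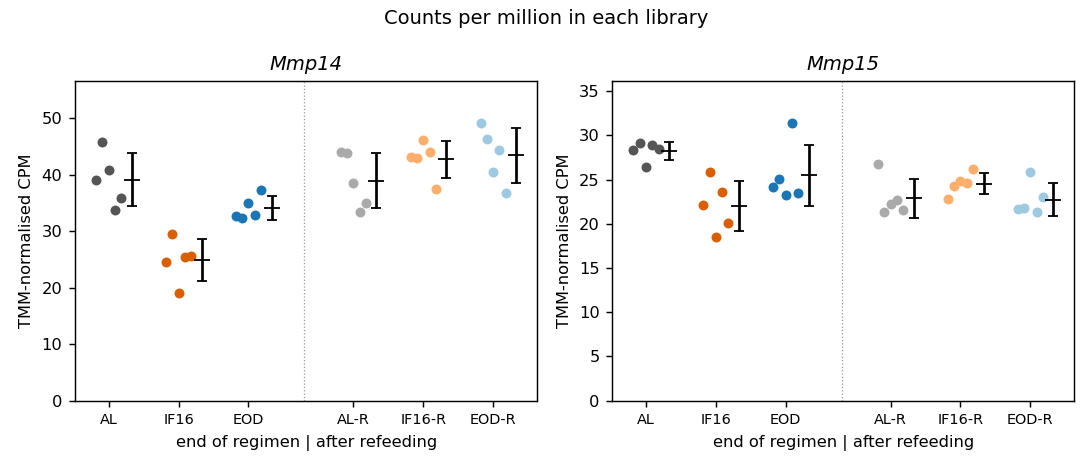
CPM of Mmp14 and Mmp15 in each library (points, replicates 1 to 5 from left to right) with the mean and SD of each group (bars), regimens left of the dotted line and refed groups right of it. The IF16 points lie below all AL points for both genes, while the 3 refed groups overlap.

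Alternate-day fasting was compared with the same AL libraries, so this comparison shares its controls with the one above. None of the 10 genes was called by edgeR, against 0.0664% of 16577 genes, and none by DESeq2. At an unadjusted p under 0.05 there were 2, Timp1 and Timp3, beside 14.4% of all genes. Estimates were split 5 higher and 5 lower, with a median log2 fold change of -0.011, against -0.018 for all genes.

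Mmp14 in EOD was 32.6, 32.3, 34.9, 32.9 and 37.4 CPM, a mean of 34.0 ± 2.13 (SD, n = 5). The EOD libraries overlapped the lower AL libraries, and the log2 fold change was -0.20 (SE 0.102). The AL libraries are those against which Mmp14 was chosen, so its values here are a description. Mmp15 was 24.1, 25.1, 23.3, 31.4 and 23.4 CPM in EOD. Replicate 4 exceeded every AL library and the other 4 lay below all of them, and the log2 fold change was -0.15 (SE 0.0961, edgeR adjusted p = 0.417).

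Timp1 was 0.549, 0.766, 0.800, 0.728 and 0.832 CPM in AL and 1.07, 1.07, 0.979, 0.898 and 1.12 CPM in EOD. All EOD libraries were above all AL libraries, on 29 to 40 against 19 to 28 counts. The log2 fold change of 0.48 (SE 0.162, 95% interval 0.16 to 0.80) had an edgeR adjusted p of 0.302. Timp1 lies inside the gene Syn1 on the opposite strand, as do Timp3 in Syn3 and Timp4 in Syn2. The synapsin Syn1 was far more abundant than Timp1, at 64.6 to 102 FPKM, and since the handling of strand is not given in the sources used here, reads of the pair may be exchanged. Syn1 itself differed by -0.018 on the log2 scale between EOD and AL (SE 0.103, edgeR adjusted p = 0.933). Timp1 and Syn1 had an r of -0.128 at the end of the regimens and -0.15 after refeeding. For Timp3 and Syn3 (0.542 to 1.75 FPKM) the r was 0.882 and 0.313, and for Timp4 and Syn2 0.518 and -0.359. Syn3 differed by 0.22 between EOD and AL (SE 0.235). An exchange of reads was not tested.

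Timp3, the TIMP that binds to the matrix and also inhibits ADAM proteinases, was 61.5, 58.7, 58.2, 27.5 and 37.6 CPM in AL and 71.5, 72.4, 58.3, 82.1 and 59.6 CPM in EOD. AL replicates 4 and 5 were far below all others, and the remaining AL libraries overlapped EOD. The log2 fold change of 0.50 (SE 0.201) had an edgeR adjusted p of 0.325. It was 0.35 without AL replicate 4 and 0.13 without the 4 libraries of extreme length gradient.

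The other 6 genes gave log2 fold changes from -0.21 (Timp2) to 0.34 (Mmp16). Mmp16, encoding MT3-MMP, averaged 4.43 ± 1.21 CPM in AL and 5.63 ± 1.08 in EOD, with overlapping libraries. Mmp24 averaged 260 ± 29.0 and 279 ± 27.5 CPM, Mmp17 90.2 ± 9.97 and 94.6 ± 15.3 CPM, and Timp4 234 ± 46.1 and 212 ± 14.7 CPM. Mmp2 averaged 2.89 ± 0.654 and 2.72 ± 0.459 CPM. None of these passed the test, and the signs for Mmp24, Mmp2 and Timp4 turned without the 4 libraries of extreme length gradient. The estimate for Mmp16 was 0.022 without them and 0.018 with the length gradient as a covariate.

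**Figure D3:**
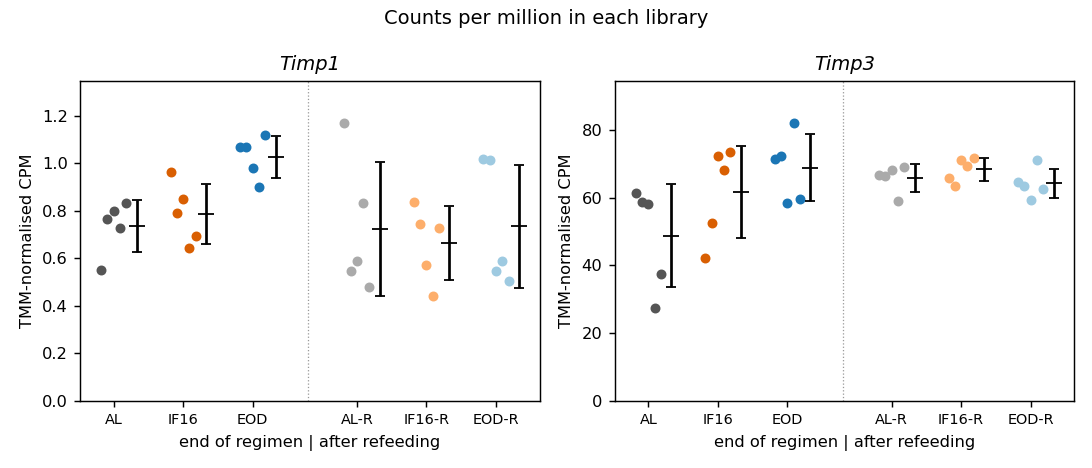
CPM of Timp1 and Timp3 in each library (points, replicates 1 to 5 from left to right) with the mean and SD of each group (bars). The EOD points of Timp1 lie above all AL points, and AL replicates 4 and 5 of Timp3, at 27.5 and 37.6 CPM, lie below every other library.

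EOD was also compared directly with IF16, which shares libraries with both comparisons above. No gene was called by edgeR (0% of 16577), with 600 at an unadjusted p under 0.05, and DESeq2 called 1. Of the 10 members none was called by either tool, and 3 had an unadjusted p under 0.05 (Mmp14, Mmp15 and Timp1), beside 3.62% of all genes. The IF16 libraries are those in which Mmp14 was chosen as low, so its values here, with its place among these 3, are a description. The count of 3 is thus not a test of the family. The estimates of all 10 were higher in EOD, with a median log2 fold change of 0.16 against -0.00065 over all genes tested. Those of Mmp16, Mmp17, Timp3 and Timp4 were lower in EOD in at least 1 other setting or leave-one-out fit.

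Mmp14 in EOD, at 32.3 to 37.4 CPM, did not overlap IF16, at 19.1 to 29.4 CPM, as was so in that direction for 0.314% of all genes. The log2 fold change was 0.45 (SE 0.103). Mmp15 differed by 0.21 (SE 0.0965) and Timp1 by 0.38 (SE 0.161), with overlapping libraries and an edgeR adjusted p of 0.977 each. The remaining 7 lay between 0.024 (Timp4, SE 0.111) and 0.29 (Mmp2, SE 0.199), with Mmp16 at 0.17, Timp3 at 0.16, Timp2 at 0.12, Mmp24 at 0.11 and Mmp17 at 0.06. The order of Mmp14 at the end of the regimens was thus AL, EOD and IF16 from high to low, in which AL and EOD overlapped and IF16 stood apart from both.

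The refed mice share no library with the comparison that chose the family. In IF16-R against AL-R none of the 10 genes was called by edgeR or DESeq2, and none had an unadjusted p under 0.05, where edgeR called 0.17% of 16444 genes. Mmp14 was 43.9, 43.8, 38.5, 33.4 and 35.0 CPM in AL-R and 43.1, 42.9, 46.2, 43.9 and 37.5 CPM in IF16-R. The groups overlapped, with means of 38.9 ± 4.87 and 42.7 ± 3.22 CPM. The log2 fold change was 0.13 (SE 0.0842, 95% interval -0.03 to 0.30, edgeR adjusted p = 0.627).

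Mmp15 was 26.7, 21.3, 22.2, 22.6 and 21.5 CPM in AL-R and 22.8, 24.2, 24.9, 24.6 and 26.2 CPM in IF16-R. AL-R replicate 1 alone exceeded the IF16-R libraries, while the other 4 AL-R libraries lay below all of them. Its log2 fold change was 0.10 (SE 0.0664, 95% interval -0.03 to 0.23, edgeR adjusted p = 0.649). The remaining 8 members ranged from -0.12 (Timp1, SE 0.277) to 0.12 (Mmp17, SE 0.107), with Timp4 at -0.09, Timp2 at -0.06, Mmp2 at 0.0012, Timp3 at 0.05, Mmp24 at 0.06 and Mmp16 at 0.10. Timp4 averaged 203 ± 13.5 and 190 ± 15.5 CPM and Mmp24 310 ± 11.3 and 323 ± 19.0 CPM in AL-R and IF16-R. The length gradient was higher in IF16-R than in AL-R (1.03 ± 0.0167 against 0.995 ± 0.00941, adjusted p = 0.0954 by exact permutation over 66 comparisons of markers and gradient). With that gradient as a covariate the signs of Mmp16, Mmp17, Timp1, Timp2 and Timp3 turned, and all 10 members were uncalled with or without it.

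EOD-R against the same AL-R libraries gave no called member by edgeR or DESeq2 and none with an unadjusted p under 0.05 (0.0426% of genes called by edgeR). Mmp14 in EOD-R was 49.2, 46.4, 40.5, 44.4 and 36.8 CPM, overlapping AL-R. The log2 fold change was 0.16 (SE 0.0842, 95% interval -0.0068 to 0.32, edgeR adjusted p = 0.634). Mmp15 averaged 22.7 ± 1.87 CPM in EOD-R and 22.9 ± 2.21 in AL-R. The largest estimate was that of Mmp2, 0.22 (SE 0.166, edgeR adjusted p = 0.772), on 54 to 93 counts in EOD-R. Timp1, which stood apart between EOD and AL, had 0.505 to 1.02 CPM in EOD-R and 0.480 to 1.17 CPM in AL-R, with a log2 fold change of 0.017 (SE 0.275). Its interval of -0.52 to 0.56 is wide. The other 6 were Mmp17 at -0.11, Mmp16 at -0.08, Timp3 at -0.036, Mmp24 at -0.014, Timp4 at -0.0098 and Timp2 at 0.08, and Mmp15 was at -0.0094.

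EOD-R against IF16-R likewise gave no called member by either tool (0.0182% of genes called by edgeR) and 1 with an unadjusted p under 0.05, Mmp17. Mmp17 was 76.2, 93.1, 111, 131 and 116 CPM in IF16-R and 80.5, 80.2, 90.0, 99.8 and 98.5 CPM in EOD-R. IF16-R had both the lowest and the highest library, and the ranges overlapped. The log2 fold change was -0.23 (SE 0.107, edgeR adjusted p = 0.505), and 9.75% of all genes had an unadjusted p under 0.05. Over 8 other settings the estimate ranged from -0.23 to -0.098 for Mmp17 and from -0.19 to -0.0038 for Mmp16. The length gradient was 0.998 ± 0.0170 in EOD-R and 1.03 ± 0.0167 in IF16-R (adjusted p = 0.105 by exact permutation). The other members were Mmp16 at -0.18, Mmp15 at -0.11, Timp3 at -0.09, Mmp24 at -0.07, Mmp14 at 0.023, Timp4 at 0.08, Timp1 at 0.13, Timp2 at 0.14 and Mmp2 at 0.22, with overlapping libraries. The plot of estimated differences shows narrower errors in the refed groups for the members other than Timp1. The SE of Timp1 was wider there, at 0.275 in EOD-R vs AL-R against 0.162 in EOD vs AL.

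**Figure D4:**
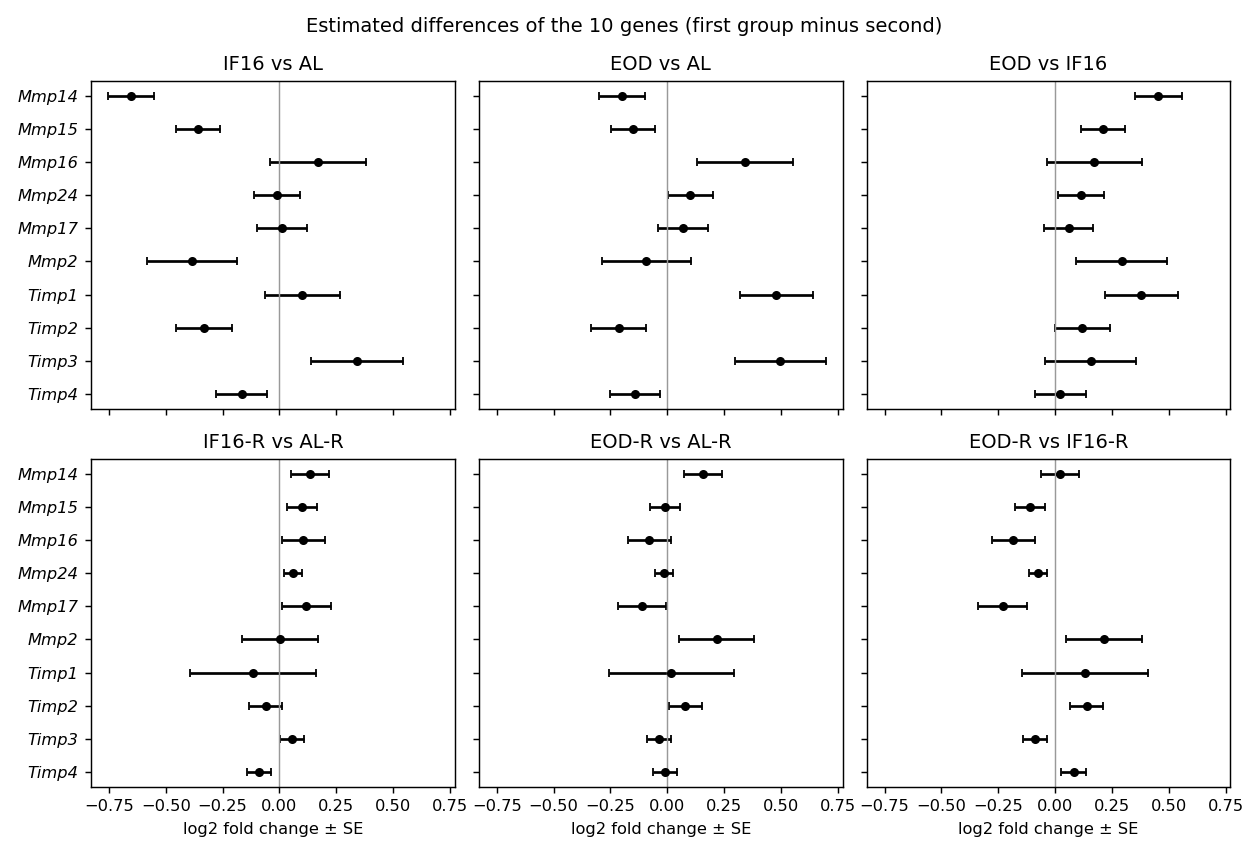
Log2 fold change (first group minus second, points) with its standard error (bars) for the 10 genes in 6 comparisons, regimens above and refed groups below. Mmp14 is at -0.65 in IF16 vs AL and at 0.13 in IF16-R vs AL-R, and after refeeding the estimates lie between -0.23 and 0.22.

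A fit of all 30 libraries asked whether a regimen's difference from its own controls was the same before and after refeeding. For EOD no member was called by edgeR or DESeq2 (0.0119% of 16877 genes by edgeR). An unadjusted p under 0.05 was found for 2, Mmp14 and Timp3, beside 10.3% of all genes. This term holds the AL libraries against which Mmp14 was chosen, so its value and its place in that count are a description. The difference of Mmp14 was 0.35 higher after refeeding on the log2 scale (SE 0.140). That of Timp3 was lower by 0.53, a value of -0.53 (SE 0.219, edgeR adjusted p = 0.466). Over 8 other settings this term ranged from -0.57 to -0.17 for Timp3 and from -0.46 to -0.10 for Mmp16. The other members lay between -0.47 (Timp1, SE 0.321) and 0.31 (Mmp2, SE 0.264), with Mmp16 at -0.42, Mmp17 at -0.18, Mmp24 at -0.12, Timp4 at 0.13, Mmp15 at 0.14 and Timp2 at 0.29. For IF16 the term contains the choosing contrast, so it is a description: it was 0.79 for Mmp14 (SE 0.141) and 0.46 for Mmp15 (SE 0.119), and from -0.28 (Timp3, SE 0.219) to 0.39 (Mmp2, SE 0.267) for the other 8, with Timp1 at -0.21, Mmp16 at -0.06, Mmp24 at 0.07, Timp4 at 0.08, Mmp17 at 0.11 and Timp2 at 0.27. Of the 10 genes 1, Mmp14, was called there, with 0.0474% of genes called. The refed mice were also 2 months older, so refeeding and age cannot be told apart except relative to the controls of the same age.

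Within groups, the members did not vary as one family. Over the 30 libraries, after group means were removed from log2 CPM, Mmp16 and Timp3 had a Pearson r of 0.776, while Timp4 ran against both, at -0.788 with Mmp16 and -0.741 with Timp3. Mmp14 and Mmp15 had an r of 0.192 and Mmp14 and Timp2, partners in the activation of MMP2, one of -0.112. Mmp14 and Mmp2 had an r of 0.182. These are descriptions over libraries that share depth and length gradient.

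The length gradient went with 3 members at the end of the regimens. Across 15 libraries, with group means removed, Timp3 had an r of 0.959 with it (rho 0.918, permutation p = 1e-05, the smallest that the permutations can give, adjusted p = 6e-04 over 60 relations). The r was 0.942 without the 2 farthest libraries. Mmp16 had an r of 0.882 (rho 0.904, permutation p = 0.00012, adjusted p = 0.0024) and 0.868 without 2 libraries.

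Timp4, one of the shortest transcripts among the members at 1416 bases, had an r of -0.821 (rho -0.796, permutation p = 0.0016, adjusted p = 0.016) and -0.747 without 2 libraries. Timp3 and Mmp16 are long, at 4722 and 5011 bases. After refeeding, where the gradient varied less, Timp3 again had an r of 0.800 (rho 0.854, permutation p = 5e-05, adjusted p = 0.0015) and 0.724 without 2 libraries. Mmp16 then had an r of 0.556 (adjusted p = 0.23 by permutation) and Timp4 one of -0.12 (adjusted p = 0.91 by permutation), neither past the threshold. Mmp15, Mmp17 and Mmp24, of 4198 to 4348 bases, showed no relation to the gradient with an adjusted p under 0.05 in either table.

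**Figure D5:**
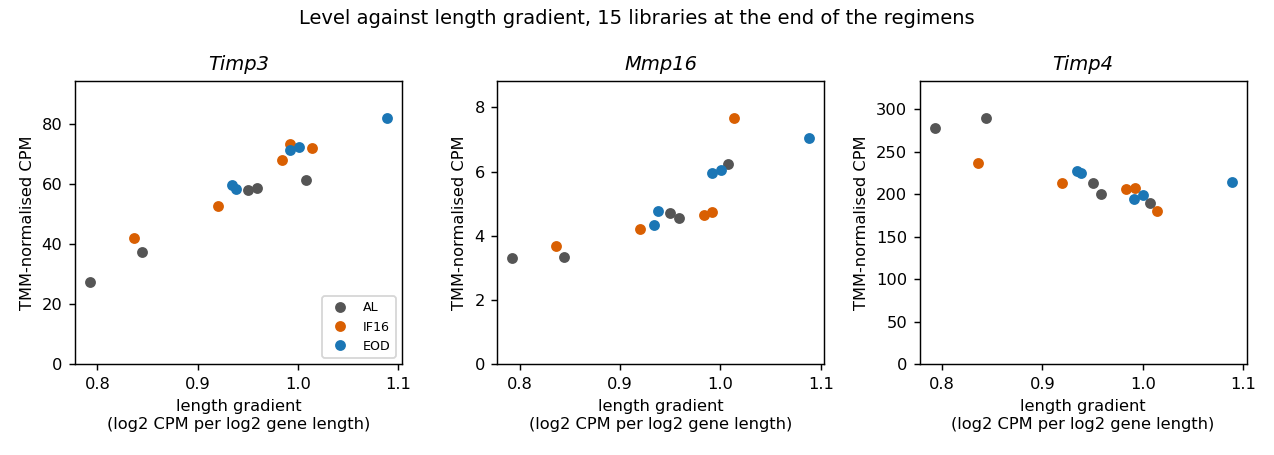
CPM of Timp3, Mmp16 and Timp4 against the length gradient of the library (log2 CPM per log2 gene length), 15 libraries at the end of the regimens, coloured by group. Timp3 and Mmp16 are lowest in the libraries of low gradient, where Timp4 is highest.

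Mmp14 had no relation to the gradient at the end of the regimens (r = 0.0315, permutation p = 0.92). After refeeding its level followed the mean of the 12 meningeal fibroblast markers (r = 0.799, rho 0.761, permutation p = 0.00057, adjusted p = 0.0086), with r = 0.688 without the 2 farthest libraries. At the end of the regimens the same relation had an r of 0.427 (permutation p = 0.19, adjusted p = 0.54) and 0.237 without 2 libraries. Their summed level was 278 to 401 CPM in AL-R, 240 to 383 in IF16-R and 208 to 399 in EOD-R, so the groups overlapped. Timp2 followed the choroid plexus markers after refeeding (r = 0.789, permutation p = 0.0012, adjusted p = 0.014), with r = 0.660 without 2 libraries, but the rank relation did not pass (rho 0.579, adjusted p = 0.14), and at the end of the regimens the r was 0.0949.

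For each member, the genes whose group-centred log2 CPM was most like its own over the 30 libraries were listed among about 13088 genes. For Mmp14 these were Coro2a (r = 0.829), Chaf1a (0.792) and Osbpl10 (0.775), and those given for Mmp15 are Cpne2 (0.721) and Ldoc1l (0.707). Timp3 was closest to Exph5 (0.982), Megf9 (0.979) and Dlgap1 (0.975), and Mmp16 to Pura (0.938), Dcp2 (0.933) and Myo9a (0.931). Timp4 was closest to Ndrg2 (0.959), Adprh (0.924) and Lcat (0.920).

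Mmp17 was closest to Jup (0.886), Chst2 (0.874) and Cebpa (0.853), and Mmp24 to Flcn (0.882), Gltscr1 (0.882) and Irf2bpl (0.874). Timp2 was closest to Nsg2 (0.799), Kcng2 (0.735) and Rgs11 (0.731). For the low genes the nearest were Idua (0.828), Ccdc17 (0.823) and Sat2 (0.764) for Timp1, and Myo7a (0.719), Pon3 (0.716) and Abhd2 (0.712) for Mmp2. The values for Timp3, Mmp16 and Timp4 come from libraries that also differ in the length gradient. Only the ranking was made, with no test.

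The members were placed beside lists of related genes. Of 17 other Mmp genes, 11 did not pass the filter on low counts in either table; Mmp1b, Mmp7 and Mmp27 had 0 counts in all 30 libraries. The 6 tested were Mmp9, Mmp11, Mmp19, Mmp23, Mmp25 and Mmp28. None of the 6 was called by edgeR or DESeq2 in any of the 8 comparisons, and 0 to 3 of them per comparison had an unadjusted p under 0.05. Mmp25, a GPI-anchored proteinase of leukocytes, was 0.651 ± 0.104 CPM in IF16-R and 0.337 ± 0.120 in AL-R, on 4 to 27 counts per library in the series (log2 fold change 0.94, SE 0.296, edgeR adjusted p = 0.309). In EOD-R it was 0.535 ± 0.208 CPM, a log2 fold change of 0.65 (SE 0.306, edgeR adjusted p = 0.579).

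Mmp11 (stromelysin 3) was the gene of smallest p between IF16 and AL, at 1.67 ± 0.411 and 2.59 ± 0.521 CPM, a log2 fold change of -0.63. Mmp23 took that place in both comparisons of EOD, with -0.41 (SE 0.177) against AL and -0.40 (SE 0.177) against IF16. Over 9 other settings the estimates for Mmp23 ranged from -0.50 to -0.15 against AL and from -0.57 to -0.19 against IF16. Mmp28 had it in EOD-R against IF16-R, at -0.24 (SE 0.135). In the interactions it was Mmp9, the gelatinase B gene, for EOD at 0.55 (SE 0.240) and Mmp28 for IF16 at 0.47 (SE 0.183).

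Of 21 activators and cell-surface regulators, all tested, edgeR in its main setting called 1 in 1 comparison. Plat, which encodes tissue plasminogen activator, a protease that makes plasmin and so can activate metalloproteinase precursors, was 57.0, 53.0, 53.7, 48.5 and 52.1 CPM in AL and 77.0, 72.1, 71.4, 72.0 and 66.0 CPM in EOD. Every EOD library was above every AL library. Plat rose by a log2 fold change of 0.44 (SE 0.0775, edgeR adjusted p = 0.0485). DESeq2 called it too. The call held in 2 of 8 other edgeR settings and in 0 of 10 fits that left out 1 library, while the estimate stayed between 0.36 and 0.47 throughout. In IF16 Plat averaged 66.5 ± 7.69 CPM against 52.9 ± 3.09 in the same AL libraries, a log2 fold change of 0.33 (SE 0.0774).

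Plaur, the receptor for urokinase, was 0.546 to 0.851 CPM in AL, 1.11 to 1.87 in IF16 and 1.04 to 1.77 in EOD. Neither fasted group overlapped the controls they share, with log2 fold changes of 0.98 (SE 0.189) in IF16 and 0.84 (SE 0.191, edgeR adjusted p = 0.171) in EOD. DESeq2 called Plaur against AL in both regimens, and Plat likewise. With the length gradient as a covariate, edgeR also called Plaur in IF16 vs AL. In EOD against IF16 the smallest p belonged to the protease inhibitor A2m, at 0.19 (SE 0.0665).

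After refeeding, Cd44, a hyaluronan receptor that docks metalloproteinases at the cell surface, averaged 7.38 ± 0.363 CPM over the AL-R libraries, 8.47 ± 0.701 over IF16-R and 8.97 ± 0.651 over EOD-R. Its log2 fold changes were 0.20 (SE 0.0738, edgeR adjusted p = 0.388) and 0.28 (SE 0.0737, edgeR adjusted p = 0.228). Spock2, a testican proteoglycan, differed by -0.11 (SE 0.0360) between EOD-R and IF16-R. In the interactions the smallest p values were those of Serpine2 for EOD, at 0.33 (SE 0.112), with an edgeR adjusted p of 0.397, and Plau (urokinase) for IF16, at 1.04 (SE 0.286).

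Of 26 ADAM and ADAMTS proteases, 24 were tested and none was called by edgeR in its main setting in any of the 8 comparisons. Per comparison 0 to 4 had an unadjusted p under 0.05, and DESeq2 made 1 call in all. With the length gradient as a covariate, edgeR called Adamts2 in IF16 vs AL. With the replicate block it called Adamts10 in EOD-R vs AL-R (edgeR adjusted p = 0.0233). The smallest p belonged to Adamts2, which trims procollagen, in IF16 vs AL (log2 fold change -0.34, SE 0.0962) and EOD vs IF16 (0.18, SE 0.0964). Adamts3 had it in EOD vs AL (0.26, SE 0.0884) and in EOD-R vs IF16-R (-0.13, SE 0.0523). Over other settings these 2 estimates ranged from 0.11 to 0.30 and from -0.14 to -0.059. Adamts10 was lower by estimate in both refed groups, at -0.17 (SE 0.0547) in IF16-R and -0.21 (SE 0.0547, edgeR adjusted p = 0.211) in EOD-R, which share their controls. This was the DESeq2 call (adjusted p = 0.0297). In the interactions the smallest p belonged to Adamts3 for EOD (-0.24, SE 0.104) and Adamts2 for IF16 (0.30, SE 0.118).

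Of 26 matrix substrates, all tested, none was called by edgeR in its main setting in the 8 comparisons. Per comparison 2 to 7 had an unadjusted p under 0.05. DESeq2 made 2 calls in all, Col4a2 in IF16 vs AL and Hapln4 in EOD-R vs IF16-R. With 1 library left out, edgeR called Hapln4 in EOD-R vs IF16-R in 2 of 10 fits. Col4a2, a chain of basement membrane collagen, had the smallest p against AL in both regimens, at -0.39 in IF16 (SE 0.0881) and -0.30 in EOD (SE 0.0880, edgeR adjusted p = 0.247), with shared controls. Nid2, a basement membrane linker, differed by 0.57 between EOD and IF16 (SE 0.169, edgeR adjusted p = 0.977).

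After refeeding the smallest p values were those of the dystroglycan gene Dag1 in IF16-R (0.13, SE 0.0460) and of Sparcl1 in EOD-R (0.11, SE 0.0311). Hapln4, a link protein of perineuronal nets, differed by -0.16 between EOD-R and IF16-R (SE 0.0353, edgeR adjusted p = 0.146 and DESeq2 adjusted p = 0.00216). Tnc, the gene of the matrix glycoprotein tenascin C, had the smallest p in both interactions, at 0.38 for EOD (SE 0.147) and 0.48 for IF16 (SE 0.147). The list medians of the substrates were -0.09 in IF16 vs AL and 0.035 in EOD vs AL on the log2 scale.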

How the data were processed

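The deposited data are raw read counts for each gene, in a table of the regimens and a table of the refed groups with 15 libraries each. The authors also deposited FPKM, in which a count is scaled by the length of the gene and the total of its library. STAR 2.5, HTSeq 0.6.1, DESeq2 2 and mm10 are named in the submitters' processing notes. The use of read strand, the annotation release and the selection of RNA are not given in the sources used here. Positions are those of the deposited tables.

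Counts were tested in edgeR 4.0.16 (R 4.3.3) by quasi-likelihood, with TMM scaling, filterByExpr by group and Benjamini-Hochberg adjustment over all genes tested, at a threshold of 0.05. Each table was fitted on its own, with its 15 libraries together, and the interactions in a joint fit of all 30. CPM are TMM-scaled within a table. Standard errors come from the F statistic. The 95% intervals use the estimate, its standard error and a normal quantile, so they are somewhat narrower than the F test would give. Relations between members and library measures used deviations from group means and 1e+05 permutations within groups, and marker lists an exact permutation test, two-sided, for which 5 libraries against 5 cannot give a p below 0.0079. The fit was tested on simulated data.

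Other settings were DESeq2 1.42.0, RLE scaling, no filter on low counts, a replicate block, the length gradient or marker levels as a covariate, only the groups compared, and each library left out. A fit without the 4 libraries of extreme length gradient was chosen after seeing the data. The members, the related lists and the markers were chosen with earlier results of these data known. By rule all 10 members are named in every comparison, and of each related list the called genes and the gene with the smallest p. For likeness the 3 genes of highest Pearson r are named, among those with a mean of at least 1 CPM. One gene that this rule points to is not reported here.

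Pairs of libraries of a group differed by a chi-square per degree of freedom of 4.24 to 136 over 60 pairs, so none was counted as a repeat of another. The labels number the libraries without saying that each is a separate animal, so p-values measure the spread between these samples. Promoter windows come from RefSeq tables of GRCm38.p6.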

Additional observations from a re-analysis of the deposited data

Results flagged for a closer look

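In 60 sets of 5 libraries (10 genes in 6 groups), 5 held a library whose gap to its nearest neighbour took more than 0.71 of the whole range, and chance does this in about 1 set of 20. Of these, 3 concerned Mmp15: AL replicate 3 was low at 26.4 CPM, EOD replicate 4 high at 31.4 CPM and AL-R replicate 1 high at 26.7 CPM. Mmp16 was high in IF16 replicate 3, at 7.67 CPM against 3.70 to 4.75 in the other IF16 libraries. Timp3 was low in AL-R replicate 4, at 58.9 CPM against 66.3 to 69.0 in the rest of AL-R. The difference of Mmp14 from the controls of the same age differed between IF16 and IF16-R by 0.79 on the log2 scale, and was called in the joint edgeR fit. Since the first of these differences chose the gene, the value is a description.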

How the results depend on the processing

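No member was called in any setting outside the 2 comparisons that contain the choosing contrast. In the 6 comparisons without the choosing contrast, 19 of 500 member estimates under other settings turned sign, and 31 of 700 with 1 library left out. In the 2 with it, 5 of 170 and 15 of 300 turned, for Mmp16, Mmp17, Mmp24, Timp1 and Timp4: under other settings Mmp17 to -0.0025, Mmp24 to 0.024 and Timp4 to 0.0025 in IF16 vs AL, and Mmp16 to 0.07 and Timp4 to -0.09 in the interaction. In IF16 vs AL the members called went from 1 to 0 with the replicate block, with meningeal markers as covariate and with only the 2 groups compared. They were 0 to 1 with a library left out: the call was lost without 5 of the 10 libraries. The replicate numbers were not taken to pair the libraries, since not every same-numbered pair had an r over 0.1: deviations of same-numbered libraries had an r of -0.534 to 0.322 (regimens) and -0.0545 to 0.427 (refed), with 5 and 14 of 15 pairs positive, and 0 of 15 and 7 of 15 libraries were most like one of their own number. In the refed table this is a hint of shared numbers from the data, not from the labels. Genes called over the whole table went, with the replicate block, to 5 (IF16 vs AL), 4 (EOD vs AL), 95 (IF16-R vs AL-R), 45 (EOD-R vs AL-R), 40 (EOD-R vs IF16-R) and 10 (EOD interaction). DESeq2 called 94, 133, 1, 105, 87 and 123 genes in the 6 comparisons in the order of the report, and 14 and 29 in the EOD and IF16 interactions. RLE scaling gave 7 in EOD vs AL. No low-count filter gave 1 in EOD vs IF16, 11 in EOD-R vs AL-R, 6 in EOD-R vs IF16-R and 4 in the EOD interaction. With the length gradient as covariate the counts were 62 (IF16 vs AL), 7 (EOD vs AL), 1 (EOD vs IF16), 0 in the 3 refed comparisons, 6 (EOD interaction) and 36 (IF16 interaction). That covariate turned Timp4 in EOD vs AL to 0.041 and in the EOD interaction to -0.038, and Timp3 in EOD vs IF16 to -0.021. In IF16-R vs AL-R it turned Mmp16 to -0.092, Mmp17 to -0.023, Timp1 to 0.0035, Timp2 to 0.025, Timp3 to -0.12 and Dag1 to -0.020, and in EOD-R vs IF16-R Timp3 to 0.065. Choroid plexus markers as covariate gave 18 genes in EOD vs AL and 16 in EOD-R vs AL-R, and Timp4 at -0.037 in EOD vs IF16. Meningeal markers gave 5 (IF16 vs AL), 6 (EOD vs AL), 1 (EOD vs IF16), 52 (IF16-R vs AL-R), 16 (EOD-R vs AL-R) and 11 (EOD-R vs IF16-R), with Mmp2 at -0.0081 in IF16-R vs AL-R and Timp1 at -0.011 in EOD-R vs AL-R. Only the 2 groups compared gave 5 (IF16 vs AL), 1 (EOD vs IF16), 4 (EOD-R vs AL-R) and 0 (EOD-R vs IF16-R). Without the 4 libraries of extreme length gradient, a setting chosen after seeing the data, the counts were 2 (EOD vs AL), 4 (EOD interaction) and 13 (IF16 interaction). There Mmp24 was -0.022, Mmp2 0.059 and Timp4 0.071 in EOD vs AL, Mmp16 -0.015 and Timp3 -0.027 in EOD vs IF16, and Mmp24 0.0071 and Timp4 -0.082 in the EOD interaction. With each library left out, genes called ranged from 3 to 10 (IF16 vs AL), 2 to 6 (EOD vs AL), 0 to 65 (IF16-R vs AL-R), 0 to 16 (EOD-R vs AL-R), 0 to 71 (EOD-R vs IF16-R), 0 to 6 (EOD interaction) and 5 to 16 (IF16 interaction). Estimates that turned ranged, in EOD vs AL, from -0.020 to 0.13 (Mmp17) and -0.18 to 0.035 (Mmp2). In EOD vs IF16 they were -0.030 to 0.12 (Mmp17) and -0.026 to 0.072 (Timp4), and in IF16-R vs AL-R -0.10 to 0.12 (Mmp2) and -0.23 to 0.12 (Timp1). In EOD-R vs AL-R they were -0.057 to 0.052 (Mmp15), -0.035 to 0.0020 (Mmp24), -0.13 to 0.26 (Timp1) and -0.044 to 0.016 (Timp4). In EOD-R vs IF16-R they were -0.027 to 0.078 (Mmp14) and -0.014 to 0.24 (Timp1). The cause was not tested. Depth limits Timp1 and Mmp2, whose libraries held 13 to 128 counts.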
